A study of Homo sapiens with 6 samples.

Results

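The genes described here encode the enzymes of fatty acid beta-oxidation in mitochondria and peroxisomes, together with the electron transfer flavoproteins that collect their electrons and 2 acyl-CoA thioesterases. They were taken by symbol from a list of 34 names, all of which are among the 38557 genes listed in the deposited counts. Of these 34, 32 had enough counts to be tested, and ACAD11 and ABCD2 did not. RNA sequencing had been done on cardiomyocytes made from WTC11, an established line of human induced pluripotent stem cells that the labels call WT. The cultures were kept in 1 of 2 backbone media, either RPMI with the serum-free supplement B27 (3 libraries) or DMEM with added fatty acids (3 libraries). The labels do not give the fatty acids, the other components of the media, the age of the cells or the time in the medium, and the media differ in basal formula as well as in lipid. All libraries derive from this single line. The titles call the replicates biological, but nothing states whether they came from separate differentiations, so the p-values measure the spread between these cultures only.

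Beta-oxidation shortens fatty acyl-CoA by acetyl units in repeated rounds of dehydrogenation, hydration, a further dehydrogenation and thiolytic cleavage. In mitochondria the acyl-CoA dehydrogenases of the opening step are specialised by chain length and pass electrons through the electron transfer flavoprotein to ubiquinone, while in peroxisomes acyl-CoA oxidases pass them to oxygen. Peroxisomes start the breakdown of very long and branched chains, and the adult heart draws most of its energy from the mitochondrial pathway, whereas immature cardiomyocytes rely more on glucose and lactate.

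The 6 libraries held 23232324 to 31035389 gene counts, and the 34 genes together took 0.243% to 0.276% of them in RPMI plus B27 and 0.321% to 0.400% in DMEM plus fatty acids. Levels are CPM, counts relative to the TMM-scaled library total. Every fold change is a log2 value, positive where DMEM plus fatty acids is higher, with its standard error from edgeR's quasi-likelihood test, and a gene is called at a Benjamini-Hochberg adjusted p under 0.05 over all 16107 genes tested. Cardiomyocyte markers were abundant in every library, with a summed level over 13 genes of 31830 to 39016 CPM in RPMI plus B27 and 25214 to 35719 CPM in DMEM plus fatty acids, ranges that overlap. Fibroblast and stromal markers differed between the media. All 12 had lower means in DMEM plus fatty acids, 6 of them called, and their sum was 5122 to 9233 CPM against 1294 to 2702 CPM, with the defining gene DCN at 0 in DMEM plus fatty acids replicate 1. Smooth muscle markers (6 of 6 lower, 1 called) summed to 1604 to 2040 CPM against 357 to 1176 CPM. Epicardial markers (4 of 5 tested lower, 1 called) summed to 1691 to 2238 CPM against 799 to 1024 CPM. With the replicate number as a block, 8 fibroblast, 2 smooth muscle, 3 epicardial and 2 cardiomyocyte markers were called as lower, where the cardiomyocyte list had 0 calls without it. The block also called 1 endothelial marker as higher and 1 hepatocyte or endoderm marker as lower, lists with 0 calls without it. Of the 3 endothelial markers tested, 1 had a positive and 2 a negative fold change (median -0.97). The sum over all 6 endothelial markers went the other way, with 30.1, 145 and 240 CPM in RPMI plus B27 and 115, 400 and 464 CPM in DMEM plus fatty acids. These sums overlapped between media and were higher in DMEM plus fatty acids within each replicate number. Over all genes the block called 1.36% as higher and 3.42% as lower, and the main test 0.292% and 1.07%. The endothelial genes PECAM1, CDH5 and VWF and the pluripotency genes NANOG and LIN28A were at 0 in some libraries. The part of these shifts in the values below was not tested, and in bulk RNA fewer cells of a type cannot be told apart from less RNA per cell.

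Most beta-oxidation genes had somewhat higher levels in DMEM plus fatty acids, and 1 of them, ETFDH, was called. Of the 32 tested, 29 had a positive and 3 a negative log2 fold change, with a median of 0.33 against 0.01 over all genes tested, 51.0% of which had a positive value. The single call compares with 1.36% called among all genes in either direction, 0.292% as higher and 1.07% as lower. At an unadjusted p under 0.05, 15 were higher and 1 was lower, where 17.7% of all genes passed, 7.70% higher and 9.98% lower. The libraries of the media did not overlap for 17 genes that were higher and 1 that was lower, against 12.8% of all genes in each direction and 25.6% in either. Within the 3 replicate numbers that the media share, 24 genes were higher in DMEM plus fatty acids each time, 1 was lower each time and 7 were mixed. The matching shares over all genes tested were not computed, so these counts have no background to be read against. Blocking on replicate number gave 2 calls among them, ETFDH and ACAA1, both higher, where 4.78% of all genes were called in either direction, 1.36% as higher and 3.42% as lower. Apart from ETFDH no tested member reached a 2-fold change. Scaling by total counts in place of TMM moved the median of all genes to 0.12 and that of the members to 0.43. A change of scaling moves all genes by a similar amount, so it cannot test the distance between these medians. Fits without 1 library called 3 to 131 genes in all, against 219.

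**Figure D1:**
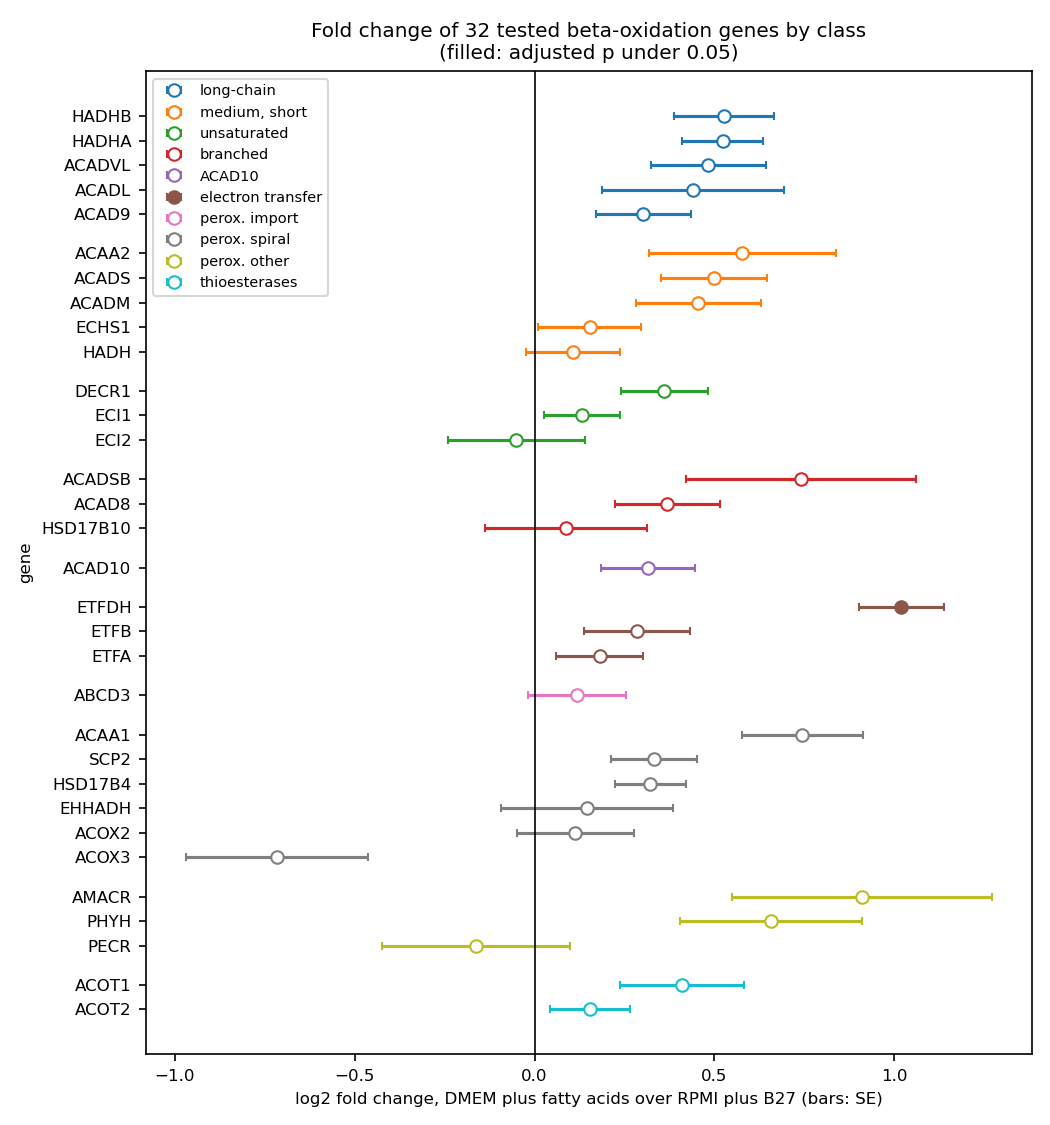
Log2 fold change, positive where higher in DMEM plus fatty acids (horizontal axis, bars are SE) for the 32 tested genes, grouped and coloured by class. The filled point is the 1 gene with an adjusted p under 0.05, ETFDH at 1.02, and the lowest point is ACOX3 at -0.72.

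The electron transfer flavoprotein system carries electrons from all mitochondrial acyl-CoA dehydrogenases to the respiratory chain. ETFA and ETFB encode its soluble subunits and ETFDH the membrane enzyme that hands the electrons to ubiquinone. ETFDH (GRCh38 chr4:158672125-158709623, plus strand) read 48.0, 49.9 and 48.7 CPM in RPMI plus B27 replicates 1 to 3 and 86.7, 105 and 105 CPM in DMEM plus fatty acids replicates 1 to 3. The RPMI plus B27 values lay within a narrow band, and every DMEM plus fatty acids value was well above it. ETFDH rose by 1.02 ± 0.12 (2.03-fold, adjusted p 0.0252, and 0.0131 with the block). ETFA read 163, 178 and 156 CPM against 169, 204 and 192 CPM, and ETFB 89.0, 107 and 113 CPM against 106, 133 and 137 CPM. The media overlapped for both subunits, with log2 fold changes of 0.18 ± 0.12 (adjusted p 0.482) for ETFA and 0.28 ± 0.15 (adjusted p 0.361) for ETFB.

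Leaving out 1 library at a time, ETFDH kept its call in 1 of 6 fits, the one without RPMI plus B27 replicate 3. In the others the adjusted p was 0.0543 without RPMI plus B27 replicate 1 and 0.0965 without replicate 2, and 0.0574, 0.0840 and 0.0832 without DMEM plus fatty acids replicates 1, 2 and 3, with fold changes of 0.98 to 1.10 over the 6 fits. On the opposite strand, exons of PPID (a cyclophilin) cover 10.9% of the ETFDH exon bases and exons of C4orf46 2.92%, and the strand setting of the counting is not given in the sources used here. PPID had 0.34 ± 0.12 (adjusted p 0.194) and C4orf46 -0.01 ± 0.28 (adjusted p 0.993). The part of these overlaps in the ETFDH counts was not tested. Of 6 tested genes for flavin supply and assembly of the flavoprotein, 3 had a positive and 3 a negative fold change (median 0.01), and none was called (edgeR; 1 at an unadjusted p under 0.05, and 0 with the block). The exception at the unadjusted level was ETFRF1, a regulator of the flavoprotein, with 17.5, 25.4 and 19.5 CPM against 28.5, 31.3 and 31.7 CPM (0.55 ± 0.17, adjusted p 0.162).

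**Figure D2:**
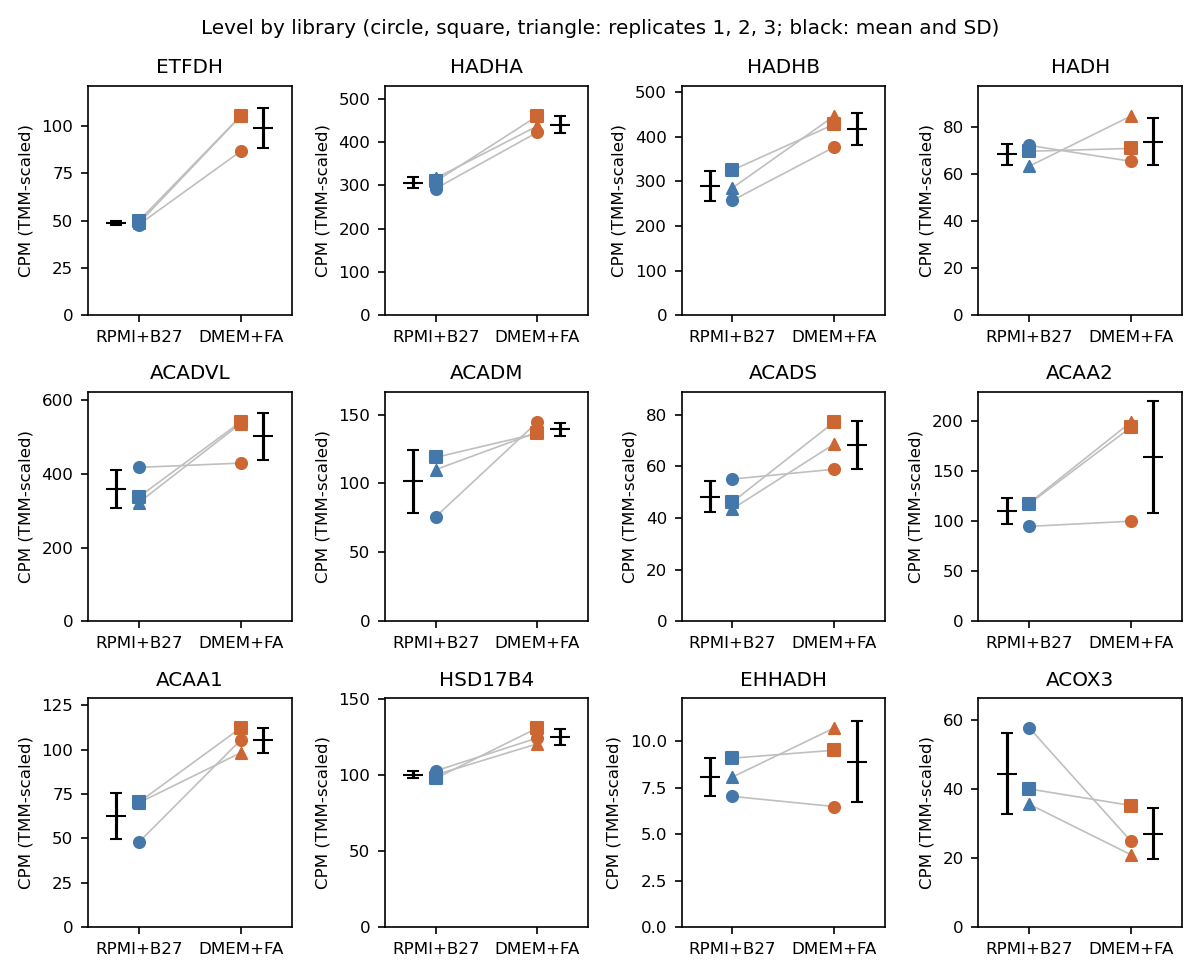
Level of 12 genes in each library (vertical axis, TMM-scaled CPM from 0), with grey lines joining libraries of the same replicate number and black bars giving mean and SD of 3. ETFDH, HADHA and ACAA1 separate the media, HADH and EHHADH do not, ACADVL and ACAA2 barely differ between the libraries numbered 1, and ACOX3 runs the other way.

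For long chains the mitochondrial spiral uses ACADVL (very long-chain acyl-CoA dehydrogenase) and the trifunctional protein, whose alpha subunit HADHA holds the hydratase and dehydrogenase and whose beta subunit HADHB is the thiolase. All 5 genes of this class had positive fold changes (median 0.48) with no overlap between media, though for ACADL the groups all but touched. Of the 5, 3 were at an unadjusted p under 0.05, and none was called in the main test or with the block. Of all genes tested, 51.0% were positive, 12.8% were higher without overlap and 7.70% were higher at an unadjusted p under 0.05. HADHA read 293, 309 and 317 CPM in RPMI plus B27 and 423, 460.4 and 437 CPM in DMEM plus fatty acids. Its replicates were tight in both media, and its 0.52 ± 0.11 missed the threshold (adjusted p 0.0799, and 0.0565 with the block). HADHB read 257, 325 and 285 CPM against 377, 428 and 446 CPM (0.53 ± 0.14, adjusted p 0.120, and 0.0607 with the block). Both subunits were called by the DESeq2 Wald test alone among the 12 alternatives, with adjusted p values of 0.00240 for HADHA and 0.0323 for HADHB (0.00240 to 0.254 and 0.0323 to 0.306 over the alternatives). That test was also the most permissive, with 1232 genes called in all against 219 in the main test.

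The proportion of the subunits overlapped between media. The log2 ratio of HADHA to HADHB counts was 0.19, -0.07 and 0.15 in RPMI plus B27 and 0.17, 0.11 and -0.03 in DMEM plus fatty acids, a difference of -0.01 (exact two-sided permutation test, p = 0.9). HADHA (GRCh38 chr2:26190635-26244726, minus strand) and HADHB (chr2:26243170-26290468, plus strand) lie head to head. These GENCODE spans overlap, while the RefSeq start sites used for the windows below are 307 bases apart. The promoter windows of both genes, 250 bases before to 50 after the start, are shown because they cover the same DNA on opposite strands. Capitals mark the 194 bases that the windows share (GRCh38.p14 chr2:26244689-26244882), each written 5′ to 3′ on its gene's own strand, from RefSeq. The windows are chr2:26244583-26244882 for HADHA and chr2:26244689-26244988 for HADHB.
HADHA: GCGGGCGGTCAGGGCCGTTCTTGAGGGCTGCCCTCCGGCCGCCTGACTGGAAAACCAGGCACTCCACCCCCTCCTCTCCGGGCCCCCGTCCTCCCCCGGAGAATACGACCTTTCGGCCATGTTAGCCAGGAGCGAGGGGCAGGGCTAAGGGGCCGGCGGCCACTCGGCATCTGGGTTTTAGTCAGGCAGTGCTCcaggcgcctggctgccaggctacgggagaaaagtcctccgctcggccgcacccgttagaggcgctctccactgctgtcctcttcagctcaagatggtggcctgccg
HADHB: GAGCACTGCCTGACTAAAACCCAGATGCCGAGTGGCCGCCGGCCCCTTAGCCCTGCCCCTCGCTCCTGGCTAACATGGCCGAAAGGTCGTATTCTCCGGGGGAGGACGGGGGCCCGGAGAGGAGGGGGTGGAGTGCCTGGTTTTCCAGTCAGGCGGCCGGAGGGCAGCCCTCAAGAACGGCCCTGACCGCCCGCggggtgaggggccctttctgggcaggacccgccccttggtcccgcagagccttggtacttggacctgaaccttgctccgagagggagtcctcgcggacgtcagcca
The shared stretch has 1 match to the GC box GGGCGG, read on either strand. That motif occurs in 27 of 36 promoter windows of the 27 members with an entry in the RefSeq table (75%) and in 44.95% of all 35116 windows. Members without an entry were ACAD11, DECR1, ACAA1, ETFDH, ACOX2, EHHADH and ACOT1.

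ACADVL, which acts on the longest chains, read 418, 338 and 323 CPM in RPMI plus B27 and 429.9, 542 and 537 CPM in DMEM plus fatty acids. The groups were separate, but the high RPMI plus B27 replicate 1 and the low DMEM plus fatty acids replicate 1 nearly met, so the difference within number 1 was 0.04 and those within numbers 2 and 3 were 0.68 and 0.73 (fitted 0.48 ± 0.16, adjusted p 0.183). ACAD9, a relative of ACADVL that also helps to assemble respiratory complex I, had 28.7 ± 3.03 and 35.3 ± 2.02 CPM (mean ± SD, n = 3 each, 0.30 ± 0.13, adjusted p 0.292). ACADL, the long-chain dehydrogenase, was scarce, with 60 to 132 counts per library and 0.44 ± 0.25 (adjusted p 0.411). Its highest RPMI plus B27 library, replicate 3 at 3.0203 CPM, all but met its lowest DMEM plus fatty acids library, replicate 3 at 3.0234 CPM. At such counts that separation carries no weight.

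The medium- and short-chain enzymes divided into genes with a difference like that of the long-chain class and genes with little. Their 5 fold changes were all positive (median 0.46), 2 had an unadjusted p under 0.05 and none was called (also 0 with the block). The shares over all genes were 51.0% positive and 7.70% higher at an unadjusted p under 0.05. ACADM (medium-chain dehydrogenase) read 75.9, 119 and 110.1 CPM in RPMI plus B27 and 145, 136 and 137 CPM in DMEM plus fatty acids (0.46 ± 0.17, adjusted p 0.235). ACADS (short-chain dehydrogenase) read 55.0, 46.2 and 43.6 CPM against 58.9, 77.1 and 68.6 CPM (0.50 ± 0.15, adjusted p 0.154). ACADM and ACADS separated the media, though RPMI plus B27 replicate 1 was the low end for ACADM and the high end for ACADS. Without that library ACADM, then the median of the class, was at 0.28.

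ACAA2, the mitochondrial thiolase for shorter chains, read 94.7, 117 and 118 CPM in RPMI plus B27 and 99.8, 194 and 199 CPM in DMEM plus fatty acids. DMEM plus fatty acids replicate 1 lay inside the RPMI plus B27 range, and the other libraries of that medium were far above it (0.58 ± 0.26, adjusted p 0.304). HADH, the dehydrogenase of the same step as HADHA for shorter chains, read 72.2, 69.8 and 63.4 CPM against 65.5, 71.0 and 84.8 CPM. The groups overlapped, with 0.11 ± 0.13 (adjusted p 0.716). ECHS1, the short-chain hydratase, had 115 ± 17.3 and 127 ± 10.3 CPM (SD, n = 3 each, 0.15 ± 0.14, adjusted p 0.621), and 0.03 without RPMI plus B27 replicate 1.

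Ratios within a library compare the enzymes with each other without any scaling. For 12 pairs of genes the difference in log2 ratio between media was tested by an exact two-sided permutation test, which cannot go below p = 0.1 with 3 against 3 libraries, so no pair could pass. The HADHA to HADH ratio was 2.02, 2.15 and 2.32 in RPMI plus B27 and 2.69, 2.70 and 2.37 in DMEM plus fatty acids, with no overlap (difference 0.42, exact p = 0.1, adjusted over the 12 pairs 0.6). Relative to HADH, HADHA was highest in replicates 1 and 2 of DMEM plus fatty acids, and replicate 3 lay just above RPMI plus B27. The ACADVL to ACADS ratio differed by -0.01 (mean 2.90 ± 0.03 against 2.88 ± 0.08, SD, exact p = 0.8), which left the longest- and shortest-chain dehydrogenases in nearly constant proportion in all 6 libraries. ACADVL to ACADM differed by 0.00 (exact p = 1) and ACADM to ACADS by -0.02 (exact p = 0.9), but without RPMI plus B27 replicate 1 these were 0.31 and -0.31. In that library ACADVL to ACADM was 2.46, against 1.51 and 1.55 in RPMI plus B27 replicates 2 and 3. Of the 12 differences, 8 changed sign when some 1 library was left out, and those of HADHA to HADH and ETFDH to ETFA did not. The ETFDH to ETFA ratio was -1.77, -1.83 and -1.68 in RPMI plus B27 and -0.96, -0.95 and -0.86 in DMEM plus fatty acids, the widest separation of the 12 (difference 0.84, exact p = 0.1, adjusted 0.6).

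**Figure D3:**
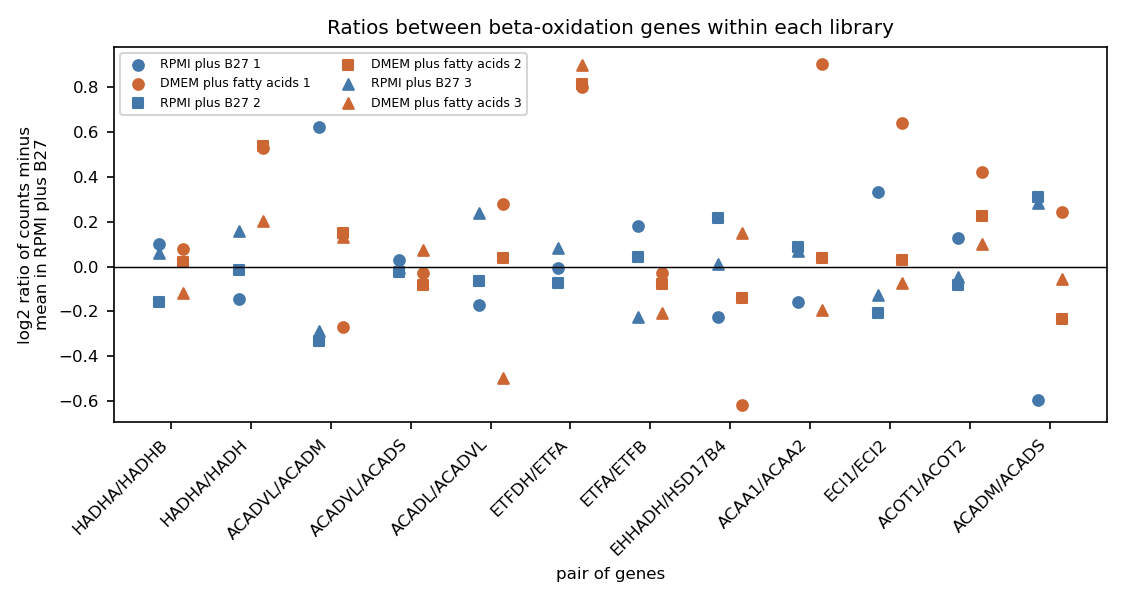
Log2 ratio of counts for 12 gene pairs in each library, minus the pair's mean in RPMI plus B27 (vertical axis), with circles, squares and triangles for replicates 1, 2 and 3. The media separate for ETFDH over ETFA and HADHA over HADH, and all ACADVL over ACADS points lie near 0.

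Unsaturated chains need extra enzymes that move or reduce double bonds. DECR1 (2,4-dienoyl-CoA reductase) read 78.1, 85.0 and 82.0 CPM in RPMI plus B27 and 91.7, 108 and 115 CPM in DMEM plus fatty acids. Its groups were separate (0.36 ± 0.12, adjusted p 0.187). The enoyl-CoA isomerases ECI1 (0.13 ± 0.10, adjusted p 0.557) and ECI2 (-0.05 ± 0.19, adjusted p 0.914, with a sign that depended on the scaling) overlapped between media.

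Dehydrogenases of branched-chain amino acid breakdown share the flavoprotein acceptor with the fatty acid enzymes. ACAD8 (isobutyryl-CoA dehydrogenase) read 45.4, 59.9 and 58.1 CPM in RPMI plus B27 and 63.3, 70.7 and 77.0 CPM in DMEM plus fatty acids (0.37 ± 0.15, adjusted p 0.250). ACADSB (short/branched-chain dehydrogenase) had 0.74 ± 0.32 (adjusted p 0.286). Its groups did not overlap, but 1 library set much of the difference, RPMI plus B27 replicate 1 at 35.3 CPM against 90.4 and 68.4 CPM in replicates 2 and 3, and without it the value was 0.45. HSD17B10, which serves isoleucine breakdown and mitochondrial tRNA processing, had 0.09 ± 0.23 (adjusted p 0.874). ACAD10, whose substrate is less settled, read 50.2, 50.5 and 45.4 CPM against 57.1, 55.0 and 69.7 CPM (0.32 ± 0.13, adjusted p 0.270, with 0.21 on leaving out DMEM plus fatty acids replicate 3), again with separate groups.

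In peroxisomes the picture was more uneven, with fold changes from -0.72 to 0.91 over the 10 tested genes (median 0.23, 8 positive, 5 higher and 1 lower at an unadjusted p under 0.05). None was called without the block (edgeR) and 1, ACAA1, was called as higher with it. Among all genes 51.0% were positive, with 7.70% higher and 9.98% lower at that unadjusted level, and the block called 1.36% as higher. ACAA1 (peroxisomal thiolase, GRCh38 chr3:38103129-38137242, minus strand) read 47.9, 70.4 and 70.1 CPM in RPMI plus B27 and 105, 112 and 98.2 CPM in DMEM plus fatty acids. Every DMEM plus fatty acids library was above every RPMI plus B27 library (0.74 ± 0.17, adjusted p 0.0837, and 0.0436 with the block). Over the 12 alternatives its adjusted p ran from 0.0135 to 0.252. Exons of DLEC1 on the other strand cover 19.7% of its exon bases, and DLEC1 itself had 5 to 25 counts per library. The part of this overlap in the ACAA1 counts was not tested. Within replicate numbers 1 to 3 ACAA1 differed by 1.13, 0.67 and 0.48.

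Among the other enzymes of the peroxisomal spiral, HSD17B4 (the D-bifunctional protein, for branched and very long chains) read 103, 97.9 and 100.2 CPM in RPMI plus B27 and 124, 131 and 121 CPM in DMEM plus fatty acids. The difference was small but the replicates were tight (0.32 ± 0.10, adjusted p 0.163). SCP2 (sterol carrier protein and thiolase) read 98.2, 101 and 85.5 CPM against 131, 116 and 111 CPM (0.33 ± 0.12, adjusted p 0.215). EHHADH, the L-bifunctional counterpart of HSD17B4, read 7.05, 9.10 and 8.09 CPM against 6.501, 9.53 and 10.7 CPM. HSD17B4 and SCP2 separated the media, while EHHADH overlapped (0.15 ± 0.24, adjusted p 0.793).

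ACOX3, an oxidase that opens the spiral for branched chains, was the exception in direction. It read 57.6, 39.9 and 35.5 CPM in RPMI plus B27 and 24.8, 35.2 and 21.0 CPM in DMEM plus fatty acids (-0.72 ± 0.25, adjusted p 0.204, and 0.105 with the block). The groups nearly touched between RPMI plus B27 replicate 3 and DMEM plus fatty acids replicate 2, and the value was -0.48 without RPMI plus B27 replicate 1. That library also had the highest summed fibroblast and stromal markers, 9233 CPM, and a link between these values was not tested. ACOX2, the oxidase for bile acid intermediates and branched chains, overlapped between media (0.11 ± 0.16, adjusted p 0.763, and 0.00721 without RPMI plus B27 replicate 3).

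Of the importers of fatty acyl-CoA into peroxisomes, ABCD3 had 60.6 ± 9.07 and 65.8 ± 2.45 CPM (SD, n = 3 each, 0.12 ± 0.14, adjusted p 0.695, and 0.00267 without RPMI plus B27 replicate 1), and ABCD2 had only 3 to 8 counts per library. PHYH, which starts the alpha-oxidation of phytanic acid, read 27.1, 40.1 and 28.5 CPM in RPMI plus B27 and 34.7, 52.3 and 63.9 CPM in DMEM plus fatty acids, with overlap (0.66 ± 0.25, adjusted p 0.239). AMACR, the racemase that prepares branched chains for oxidation, read 0.754, 1.62 and 1.04 CPM against 1.72, 2.51 and 2.16 CPM (0.91 ± 0.36, adjusted p 0.252). These levels correspond to 20 to 75 counts, and AMACR shares 55.0% of its exon bases with the read-through gene C1QTNF3-AMACR, so its count is uncertain. PECR, a peroxisomal enoyl-CoA reductase, overlapped (-0.16 ± 0.26, adjusted p 0.789).

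ACAD11, a dehydrogenase of long and hydroxylated acyl chains, had 0 counts in all 6 libraries, which allows up to 3 counts or 0.0889 to 0.129 CPM depending on the library (counting error only). Reads that overlap more than 1 gene were set aside in counting (3.90% to 4.15% of the reads tallied per library), so whether ACAD11 was transcribed cannot be read from its row.

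ACOT1 and ACOT2 are close paralogues that release free fatty acids from acyl-CoA in the cytosol and in mitochondria, and reads that align to more than 1 place were set aside (3.05% to 4.10% of the reads tallied), so their counts are uncertain. ACOT1 read 10.6, 10.4 and 9.40 CPM in RPMI plus B27 and 14.7, 14.2 and 11.5 CPM in DMEM plus fatty acids (0.41 ± 0.17, adjusted p 0.274). ACOT2 read 69.6, 78.8 and 69.5 CPM against 78.7, 87.0 and 76.7 CPM (0.15 ± 0.11, adjusted p 0.515, with 0.0991 on leaving out DMEM plus fatty acids replicate 2). The groups were separate for ACOT1 and overlapped for ACOT2, and their ratio differed by 0.25 (exact p = 0.2, adjusted 0.8). Among 7 tested thioesterases outside the 34 (median 0.14), ACOT11 was called, with 18.0, 28.4 and 34.04 CPM against 77.3, 62.4 and 62.3 CPM (1.33 ± 0.24, adjusted p 0.0495, kept in 0 of the 6 fits without 1 library, with an adjusted p up to 0.138). With the block, ACOT7 was also called, in the other direction (-0.73 ± 0.22, adjusted p 0.153, and 0.0357 with the block).

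Compared per kilobase of transcript, the levels of the 33 genes with counts in RPMI plus B27 ran from 0.03 for ABCD2 to 155 for ACADVL. In RPMI plus B27 the highest levels per length (CPM per kilobase of the principal GENCODE transcript, mean ± SD, n = 3) were those of ACADVL (155 ± 22.1), HADHB (141 ± 16.7), ETFB (114 ± 13.7) and HADHA (101 ± 4.01). The ranges of mean ± SD overlapped for ACADVL and HADHB, and for ETFB and HADHA. Genes were not compared within each library, so this overlap does not show that their levels were equal. In DMEM plus fatty acids ACADVL (217 ± 27.3) and HADHB (204 ± 17.6) again led and again overlapped, followed by HADHA (145 ± 6.25) and ETFB (139 ± 18.3). The scarce members were the long-chain dehydrogenase ACADL (1.12 ± 0.10 and 1.52 ± 0.29), EHHADH (2.10 ± 0.27 and 2.32 ± 0.57), AMACR and PECR. ETFDH was at 14.9 ± 0.30 in RPMI plus B27, below ETFA (72.5 ± 4.93) and ETFB, and at 30.2 ± 3.27 in DMEM plus fatty acids, still below both.

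**Figure D4:**
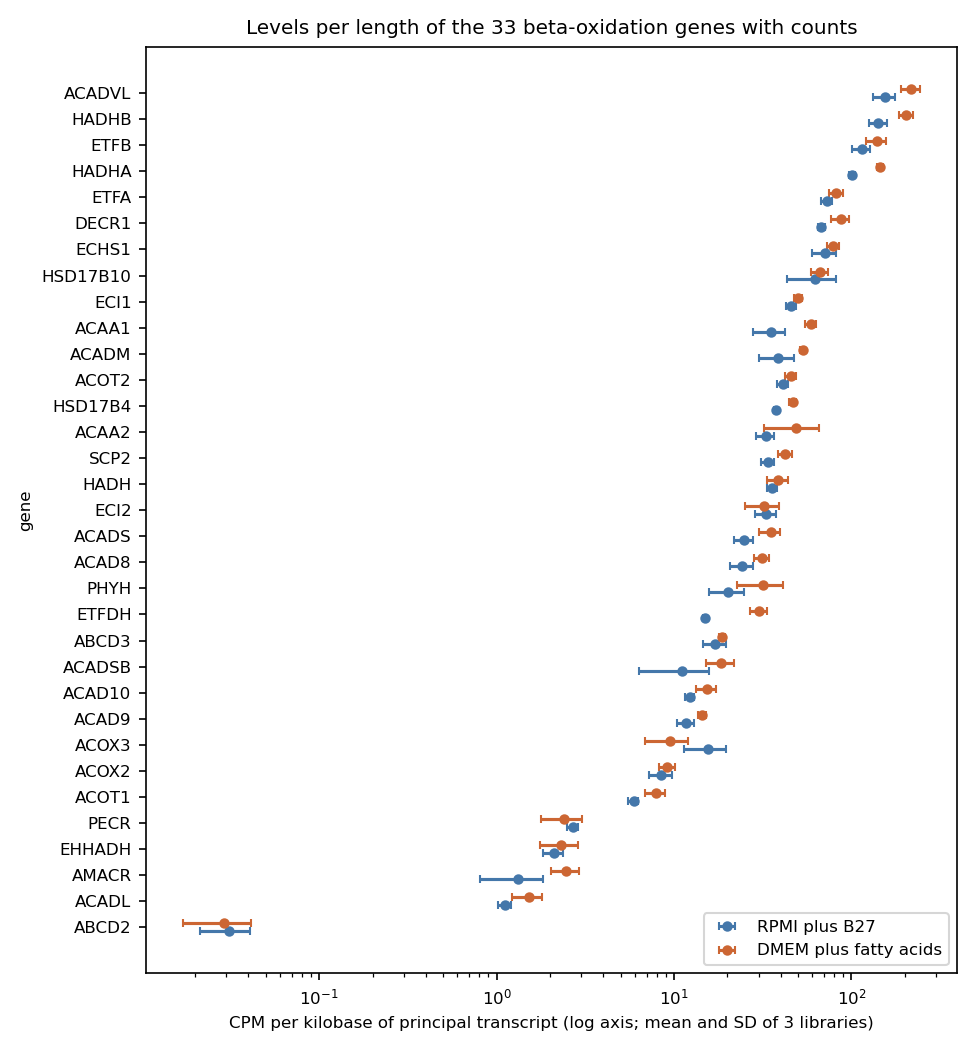
Level of the 33 genes with any counts, as CPM per kilobase of principal transcript on a log axis (points and bars are mean and SD of 3 libraries per medium), ordered by the mean over media. ACADVL and HADHB lead at 141 to 217, and ABCD2 lies lowest.

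Summed over the 11 peroxisomal genes, counts made up 17.3%, 16.7% and 16.3% of the mitochondrial plus peroxisomal total in RPMI plus B27 and 16.9%, 15.5% and 14.7% in DMEM plus fatty acids. The ranges overlapped, and within each replicate number the share was lower in DMEM plus fatty acids. The summed level of the 19 mitochondrial genes was 2130.0 ± 112 CPM in RPMI plus B27 and 2858 ± 273 CPM in DMEM plus fatty acids, and that of the peroxisomal genes 429.6 ± 16.5 and 531 ± 22.5 CPM (SD, n = 3 each). Neither sum overlapped between media. The long-chain class summed to 998, 1002 and 959.7 CPM against 1266, 1470.5 and 1460.3 CPM, and the medium- and short-chain class to 393, 474 and 462 CPM against 485, 609 and 625 CPM. The log2 ratio of long-chain to medium- and short-chain counts was 1.34, 1.08 and 1.05 against 1.39, 1.27 and 1.23. These ranges overlapped too, and within each replicate number the ratio was higher in DMEM plus fatty acids. HADHA and HADHB together took 27.4%, 28.4% and 27.99% of the mitochondrial counts in RPMI plus B27 and 31.4%, 29.3% and 29.4% in DMEM plus fatty acids, without overlap. Median fold changes were 0.37 for the mitochondrial genes and 0.23 for the 10 tested peroxisomal genes, and no test was made between these medians.

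Other proteins of the organelles gave smaller medians. Of 22 general mitochondrial genes (import, chaperones, carriers, citrate synthase), 20 had a positive fold change with a median of 0.14, none was called in the main test (edgeR; 3 at an unadjusted p under 0.05, all higher) and 0 with the block. Among all genes 51.0% were positive, and 7.70% were higher and 9.98% lower at that unadjusted level. CS, citrate synthase, read 485, 444 and 412 CPM in RPMI plus B27 and 602, 575 and 526 CPM in DMEM plus fatty acids (0.34 ± 0.13, adjusted p 0.227). Counts of the mitochondrial beta-oxidation genes equalled 32.02%, 32.5% and 32.9% of the counts of these general genes in RPMI plus B27 and 31.1%, 36.8% and 44.2% in DMEM plus fatty acids, so that replicate 1 of the latter did not exceed RPMI plus B27. Of 20 genes for peroxisome biogenesis and matrix, 9 had a positive and 11 a negative fold change (median -0.01), and none was called in the main test (1 higher and 1 lower at an unadjusted p under 0.05). CAT, the peroxisomal catalase, was called with the block alone (0.69 ± 0.20, adjusted p 0.147, and 0.0440 with the block), and PEX11A, a factor of peroxisome division, had -0.85 ± 0.25 (adjusted p 0.153). The peroxisomal beta-oxidation genes equalled 72.4%, 69.6% and 68.2% of the counts of that list in RPMI plus B27 and 88.1%, 82.8% and 75.2% in DMEM plus fatty acids, without overlap.

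Upstream of the spiral, 1 of 15 tested genes of acyl uptake, activation and the carnitine shuttle was called (12 positive, median 0.32). This was CPT1A, the gate of mitochondrial entry, with 34.9, 25.99 and 27.1 CPM in RPMI plus B27 and 62.3, 127 and 107 CPM in DMEM plus fatty acids (1.75 ± 0.27, adjusted p 0.0402, kept in 1 of the 6 fits without 1 library and up to 0.123 in the others). CPT1B, the muscle form, was scarce, with 0.791, 0.638 and 0.373 CPM against 1.85, 1.40 and 1.42 CPM (1.37 ± 0.37, adjusted p 0.124), and ACSL1 (acyl-CoA synthetase) had 0.54 ± 0.21 (adjusted p 0.234), with 0.27 on leaving out DMEM plus fatty acids replicate 1, its highest library. Of 21 further beta-oxidation genes, 16 had a positive fold change (median 0.09) and none was called in the main test (edgeR; 5 at an unadjusted p under 0.05, all higher). Among all genes 51.0% were positive and 7.70% were higher at that unadjusted level, and the block called 1.36% as higher. MLYCD, which removes the malonyl-CoA that blocks fatty acid entry, was called with the block (41.4, 49.8 and 51.7 CPM against 64.7, 79.7 and 77.2 CPM, 0.63 ± 0.14, adjusted p 0.0808, and 0.0258 with the block). Next by p came ACAT1 (acetoacetyl-CoA thiolase, 0.52 ± 0.16, adjusted p 0.160) and CRAT (carnitine acetyltransferase, 0.32 ± 0.10, adjusted p 0.169).

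Of 17 genes for transcriptional regulators of the pathway, 10 had a positive fold change (median 0.11) and none was called in the main test (3 higher and 1 lower at an unadjusted p under 0.05). The shares over all genes at that unadjusted level were 7.70% higher and 9.98% lower. ESRRG (oestrogen-related receptor gamma, a regulator of oxidative genes in heart) was called with the block, with 75.9, 93.3 and 73.7 CPM against 138, 154 and 108 CPM (0.72 ± 0.16, adjusted p 0.0875, and 0.0255 with the block). RXRG, a retinoid X receptor, had -0.997 ± 0.35 (adjusted p 0.203), and PPARA, the fatty acid receptor, 0.11 ± 0.26 (adjusted p 0.866), with the sign reversed (-0.20) without DMEM plus fatty acids replicate 1. PPARA is named here for its role after its value was seen.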

How the data were processed

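Each library's deposited file lists whole-number read counts by gene symbol, made with STAR and HTSeq on hg38 per the submitters' processing notes. Versions, annotation and strand setting are not given in the sources used here. Counts were tested with edgeR 4.0.16 (R 4.3.3) after filterByExpr (minimum count 10, minimum total 15) and TMM scaling, with medium as the only term, and the procedure was tested on simulated data. Summary rows that name no gene stayed out of library sizes. Reads that fell in no gene were 5.44% to 7.57% of the reads tallied, and the reads set aside as overlapping more than 1 gene or aligning to more than 1 place came on top. Alternatives were a replicate block, DESeq2 1.42.0, other scalings and filters, and leaving out each library. Same-numbered libraries deviated together across all genes tested (correlations 0.31, 0.43 and 0.37). Across the members this was weaker, with 0.15, 0.14 and 0.04. The differently numbered RPMI plus B27 replicate 2 and DMEM plus fatty acids replicate 3 had 0.17 there. The main test ignores the numbers, which come from the titles, and only the block treats them as pairs. Gene positions and lengths come from GENCODE 29 (GRCh38). The 34 genes and all lists were chosen with earlier results of these data known. Values in every library are given for members with an unadjusted p under 0.05 and for 14 enzymes fixed by role, and from other lists for called genes and up to 4 with the smallest p. Some results are not reported here.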

Additional observations from a re-analysis of the deposited data

How the results depend on the processing

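The number of genes called was 219 in the main test, 770 with the replicate block, 1232 by the DESeq2 Wald test, 539 without a filter and 119 with at least 10 counts in every library, and 3 to 131 when 1 library was left out. The fits by DESeq2 and with another filter covered other sets of genes than the 16107 of the main test, and the shares called in them were not computed. For the members the number called was 1, with 2 under the block, 4 by DESeq2 (ETFDH, HADHA, HADHB and ACAA1), 2 without a filter and 0 to 1 when 1 library was left out. The block changed no other call among the members. The median over all genes was 0.12 with total count scaling, 0.0225 without a filter and -0.0017 to 0.0218 when 1 library was left out. Total count scaling gave medians of 0.43 for all members, 0.60 for the long-chain class, 0.24 for the unsaturated class and 0.35 for the peroxisomal spiral. The medium- and short-chain median was 0.28 to 0.47 when 1 library was left out. Of the 32 tested members, 27 kept their sign in all 12 alternatives and 5 uncalled ones did not. When 1 library was left out, HADH ran from -0.000666 (without DMEM plus fatty acids replicate 3) to 0.181, EHHADH from -0.00483 (without the same library) to 0.322, HSD17B10 from -0.125 (without RPMI plus B27 replicate 1) to 0.318, and PECR from -0.299 to 0.0276 (without DMEM plus fatty acids replicate 1). ECI2 ran from -0.191 to 0.106 (without DMEM plus fatty acids replicate 1), was 0.0182 without RPMI plus B27 replicate 2, and was 0.0647 with total count scaling. Of the 12 gene ratios, 8 changed sign when some 1 library was left out. The cause was not tested. With 20 to 75 counts AMACR, and with 3 to 8 ABCD2, are limited by depth.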

Other observations

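The RefSeq promoter windows of 27 of the 34 genes (36 windows, 250 bases before to 50 after each start) were also searched on both strands for motifs of nuclear receptors and of the core promoter. The letters AGGTCA, bound by many nuclear receptors, matched 1 of 36 windows, that of ACAD10 (2.78%), and 13.8% of all 35116 windows. The oestrogen-related receptor site TCAAGGTCA, which contains AGGTCA, matched 0 of 36 and 0.353% of all. The TATA box TATAAA matched 2 of 36 windows (5.56%), of ABCD2 and ACADVL, and 11.5% of all. A missing match says only that these letters are not in these windows.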
